A study of Mus musculus with 6 samples.

Results

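The granule and phagocyte genes are a set of 31 mouse genes that serve neutrophils, monocytes and macrophages: components of the primary, secondary and tertiary granules, lysozymes, subunits of the phagocyte oxidase, Fc receptors with their adaptors, and surface and complement proteins of phagocytes. Members were found on the arrays through the RefSeq accession that names each probe. Of the 31 members 30 had a probe, and these 30 were measured among 29192 genes and transcripts. Cd68, a lysosomal glycoprotein of macrophages, had no matched probe and is not analysed here. The cells were the mouse haematopoietic progenitor line called Lhx2, grown with stem cell factor and human interleukin 6 and kept overnight without serum, in albumin, before the experiment. In one group the cytokine TGF-β1 was then added (10 ng/ml, 2 h), while the other stayed untreated. Each group had 3 arrays, numbered 1 to 3, and RNA was harvested independently 3 times. A treated and an untreated array of the same number are called a pair.

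Granulocyte precursors make their granule proteins in waves. Proteases and myeloperoxidase of the primary granules come at the promyelocyte stage, the contents of secondary granules follow in myelocytes and metamyelocytes, and tertiary granule proteins such as gelatinase come last, so the wave in use marks how far a cell has gone. Monocytes share some of these genes, and macrophages add scavenger receptors, complement components and a larger set of Fc receptors.

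Each array was hybridised with Cy3-labelled RNA, 1 colour to an array. Values are log2 of the spot signal after background subtraction, minus the log2 of the 75th percentile of signal on that array, so a value of 0 is a gene at that percentile. The 75th percentile lay between 794 and 1031 intensity units, and 82.9% to 90.3% of probes were well above background on an array. All 37 probes of the 30 members were well above background on all 6 arrays and none was saturated (0 spots). The number of arrays limits the precision. Nothing in the labels says whether the 2 arrays of a number came from 1 harvest, so p-values measure the spread between these arrays. Levels of different probes are not set against each other. In RNA from whole cultures, fewer cells of a type and less RNA per cell cannot be told apart.

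Marker genes of stem cells and progenitors were read alongside the members. Of 12 stem and progenitor markers 11 were well above background on all 6 arrays. So were 8 of 8 megakaryocyte, 9 of 9 mast cell and basophil and 10 of 11 fibroblast and stroma markers, and 7 of 9 lymphoid ones. Detection alone therefore does not identify the cells. The stem cell factor receptor gene Kit lay between 2.02 and 3.16 and Cd34 between 5.62 and 6.20. The probe of Lhx2 itself, the LIM homeobox gene after which the line is called, was dim, at -4.55 to -3.86, and well above background on 6 arrays.

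The promoters of the members on which the results turn are shown because the values below set them apart: S100a8, S100a9 and Ccr2 were high and Mrc1 low in replicate 3, and Ncf1 and Fcgr3 had the largest positive changes after TGF-β1. Each is the 250 bases before the annotated start, from RefSeq on build GRCm38.p6, read 5′ to 3′ on the strand of the gene. They lie at chr3:90668821-90669070 on the plus strand (S100a8), chr3:90695722-90695971 on the minus strand (S100a9), chr2:14229164-14229413 on the plus strand (Mrc1), chr9:124101933-124102182 on the plus strand (Ccr2), chr5:134229626-134229875 on the minus strand (Ncf1) and chr1:171059404-171059653 on the minus strand (Fcgr3). Capitals mark matches, on either strand, to TTNNGNAA (the core read by C/EBP factors), GAGGAA (the core read by PU.1) and CAGAC (the longer SMAD box).
S100a8: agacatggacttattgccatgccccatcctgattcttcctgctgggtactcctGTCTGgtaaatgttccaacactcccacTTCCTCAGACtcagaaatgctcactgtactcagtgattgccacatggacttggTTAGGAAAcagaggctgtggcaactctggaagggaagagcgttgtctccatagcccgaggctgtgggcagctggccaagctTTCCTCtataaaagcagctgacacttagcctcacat
S100a9: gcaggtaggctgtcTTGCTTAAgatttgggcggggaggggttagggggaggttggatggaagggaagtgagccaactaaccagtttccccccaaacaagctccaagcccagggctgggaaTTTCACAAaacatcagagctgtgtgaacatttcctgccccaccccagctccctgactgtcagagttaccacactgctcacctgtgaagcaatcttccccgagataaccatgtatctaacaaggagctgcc
Mrc1: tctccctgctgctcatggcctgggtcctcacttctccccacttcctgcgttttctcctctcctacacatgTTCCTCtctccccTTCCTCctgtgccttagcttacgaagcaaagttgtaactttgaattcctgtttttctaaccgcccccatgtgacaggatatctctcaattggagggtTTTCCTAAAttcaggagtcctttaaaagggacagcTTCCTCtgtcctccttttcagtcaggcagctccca
Ccr2: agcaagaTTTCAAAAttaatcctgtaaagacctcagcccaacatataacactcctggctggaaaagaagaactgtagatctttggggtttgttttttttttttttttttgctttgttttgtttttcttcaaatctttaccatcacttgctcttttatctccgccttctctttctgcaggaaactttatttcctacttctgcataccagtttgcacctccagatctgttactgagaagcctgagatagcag
Ncf1: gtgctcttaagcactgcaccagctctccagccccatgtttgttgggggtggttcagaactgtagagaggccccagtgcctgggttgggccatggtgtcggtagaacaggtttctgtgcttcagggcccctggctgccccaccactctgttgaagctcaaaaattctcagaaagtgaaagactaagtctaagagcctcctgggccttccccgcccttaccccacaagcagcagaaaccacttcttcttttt
Fcgr3: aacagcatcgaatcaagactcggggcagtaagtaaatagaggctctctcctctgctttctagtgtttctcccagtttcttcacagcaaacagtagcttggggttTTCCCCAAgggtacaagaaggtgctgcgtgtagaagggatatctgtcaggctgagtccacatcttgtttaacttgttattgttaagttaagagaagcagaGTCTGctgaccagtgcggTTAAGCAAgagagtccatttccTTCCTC

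In S100a8 the run TTCCTCAGAC joins a PU.1 match and a SMAD match that share 1 base, and the capital run of 9 bases in Mrc1 holds 2 overlapping C/EBP matches. The S100a8 window held 1 C/EBP, 2 PU.1 and 2 SMAD matches, S100a9 had 2 C/EBP matches and Mrc1 had 2 C/EBP and 3 PU.1 matches. Ncf1 had 0 matches to any of them. The table holds promoters of 25 members, of which 14 held the C/EBP core (56%), 13 the PU.1 core (52%) and 9 the SMAD box (36%), and among all 27025 promoters the shares were 37%, 23.1% and 42.2%. A match to these letters is a description of the sequence only.

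The largest differences among the members followed the replicate number, not the treatment. A moderated F-test in limma, with treatment in the model, called 10 of the 30 members different between replicate numbers (adjusted p under 0.05), against 3.06% of all genes and transcripts tested. At an unadjusted p under 0.05 the test took 21 of 30 members, against 21.4% of all genes. Of the 10 called members 8 were highest in replicate 3. The median range between replicate means was 0.77 over the members and 0.37 over all genes on the log2 scale. Members were chosen with earlier results of these data known. The shares set against all genes, here and below, are therefore a description and not an independent test of the set.

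**Figure D1:**
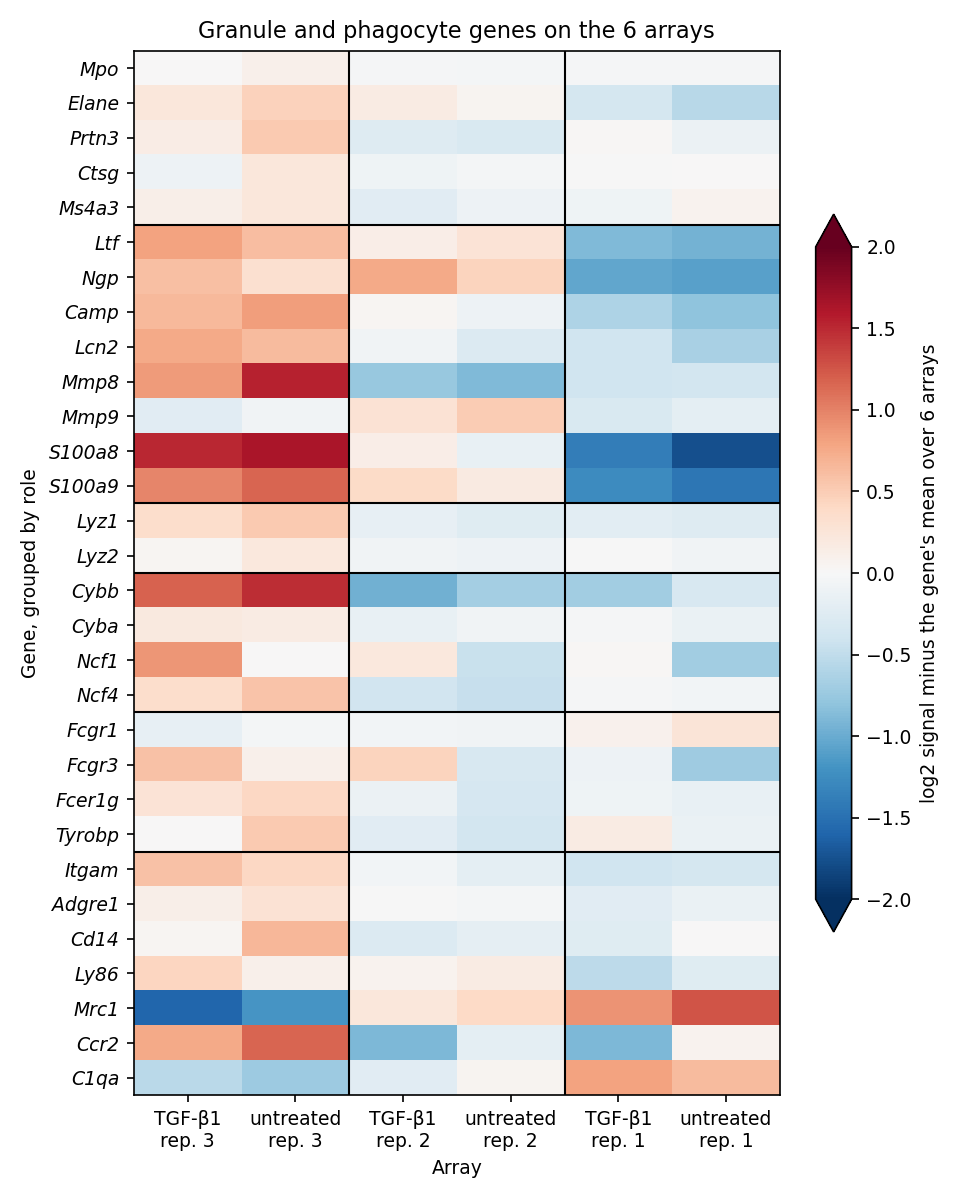
Signal of the 30 measured members on each of the 6 arrays, as log2 minus the gene's own mean over the arrays (colour), with members grouped by role down the page and arrays ordered by replicate number, treated left of untreated. Most secondary granule genes, Cybb and Ccr2 are red in replicate 3, and Mrc1 is blue there. Neighbouring treated and untreated columns look alike for most members, with Ncf1, Fcgr3 and Ccr2 among the exceptions.

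Of the 8 genes listed as secondary and tertiary granule 7 were called, all but Mmp9, the gelatinase of tertiary granules (adjusted p = 0.125). The Mmp9 probes were dim, at 40.5 to 80.6 intensity units for the one used and 35.6 to 87.0 for the second. Mmp9 was among the 16 members called with normexp background correction, which called 15928 of all genes and transcripts. S100a8 and S100a9, counted in the secondary and tertiary granule list, encode the subunits of calprotectin, a calcium-binding complex of the neutrophil cytosol rather than of a granule. S100a8 was at 4.77 treated and 4.89 untreated in replicate 3, at 3.39 treated and 3.12 untreated in replicate 2, and at 1.87 treated and 1.51 untreated in replicate 1. All arrays of one number were apart from those of the other two, so that replicate 3 was 8.81-fold above replicate 1 (log2 difference 3.14, SE 0.17; F-test adjusted p = 0.0054). S100a9 was at 5.96 treated and 6.15 untreated in replicate 3, at 5.36 treated and 5.16 untreated in replicate 2, and at 3.72 treated and 3.53 untreated in replicate 1. The 2 arrays of replicate 1 were the low ones, and replicate 3 was 5.38-fold above replicate 1 (2.43, SE 0.16; adjusted p = 0.0089).

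Among the matrix and antimicrobial proteins of the secondary granules, lactoferrin (Ltf), the cathelicidin Camp and the siderophore-binding lipocalin Lcn2 were all highest in replicate 3 and lowest in replicate 1. Ltf was at -1.34 treated and -1.54 untreated in replicate 3, at -2.03 treated and -1.88 untreated in replicate 2, and at -3.03 treated and -3.10 untreated in replicate 1. Replicate 3 was 3.09-fold above replicate 1 (1.63, SE 0.15; adjusted p = 0.0218), and the second Ltf probe had 1.61. Camp was at -1.05 treated and -0.86 untreated in replicate 3, at -1.67 treated and -1.79 untreated in replicate 2, and at -2.32 treated and -2.50 untreated in replicate 1, which made replicate 3 2.74-fold higher than replicate 1 (1.45, SE 0.15; adjusted p = 0.0348). Neither Ltf nor Camp overlapped between any 2 replicate numbers. Lcn2 was at 2.27 treated and 2.15 untreated in replicate 3, at 1.44 treated and 1.24 untreated in replicate 2, and at 1.12 treated and 0.87 untreated in replicate 1. Its replicate 3 arrays did not overlap with the others and were 2.32-fold above replicate 1 (1.21, SE 0.13; adjusted p = 0.0314).

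Ngp and Mmp8 had patterns of their own. Ngp, the neutrophilic granule protein, was at -1.02 treated and -1.30 untreated in replicate 3, at -0.87 treated and -1.19 untreated in replicate 2, and at -2.68 treated and -2.72 untreated in replicate 1. Replicates 3 and 2 overlapped (log2 difference -0.13), while replicate 3 was 2.90-fold above replicate 1 (1.53, SE 0.14; adjusted p = 0.0141). Mmp8, the neutrophil collagenase, was at 1.34 treated and 2.03 untreated in replicate 3, at -0.27 treated and -0.38 untreated in replicate 2, and at 0.10 treated and 0.13 untreated in replicate 1. Here replicate 3 stood apart from both others, 4.03-fold above replicate 2 (2.01, SE 0.23; adjusted p of the contrast = 0.0209) and 2.97-fold above replicate 1 (1.57; adjusted p of the contrast = 0.0614), with an F-test adjusted p of 0.0394.

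Of the 5 genes listed as primary granule none passed the same test (adjusted p between 0.145 and 0.830). Mpo, the myeloperoxidase gene, was at 8.52, 8.49 and 8.49 on the treated arrays of replicates 3, 2 and 1, against 8.60, 8.46 and 8.48 on the untreated ones. All 6 Mpo values lay within a narrow span, with a range of 0.09 between replicate means. Ctsg, the cathepsin G gene, had a range of 0.12. Ms4a3, counted in this list though it encodes a membrane protein of granulocyte and monocyte precursors, had one of 0.33. Elane, the neutrophil elastase gene, had the widest range of the 5 at 0.80, with 1.93 treated and 2.16 untreated in replicate 3, against 1.34 treated and 1.15 untreated in replicate 1. Prtn3, proteinase 3, had a range of 0.62. Whether the spread of the secondary granule genes differs from that of the primary ones was not tested. The probes also differed in brightness, with 308893 to 377162 intensity units for Mpo and 162771 to 180905 for Ctsg, against 2003 to 3920 for Elane. Whether the range between replicate means depends on the brightness of a probe was not tested.

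The lysozymes, antimicrobial enzymes of granulocytes and macrophages, gave readings that depended on the probe. The brighter Lyz2 probe had a replicate 3 minus replicate 1 difference of 0.16 (adjusted p = 0.502 in the gene-level fit). The dimmer Lyz2 probe had 4.42 treated and 4.50 untreated in replicate 3, against 3.01 treated and 3.0 untreated in replicate 1, a difference of 1.46 (SE 0.13; adjusted p = 0.0132 in a fit on all probes kept). Lyz1 had 0.67 (adjusted p = 0.125 in the gene-level fit). The 2 genes are near-identical copies, so which one a probe reads is uncertain.

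**Figure D2:**
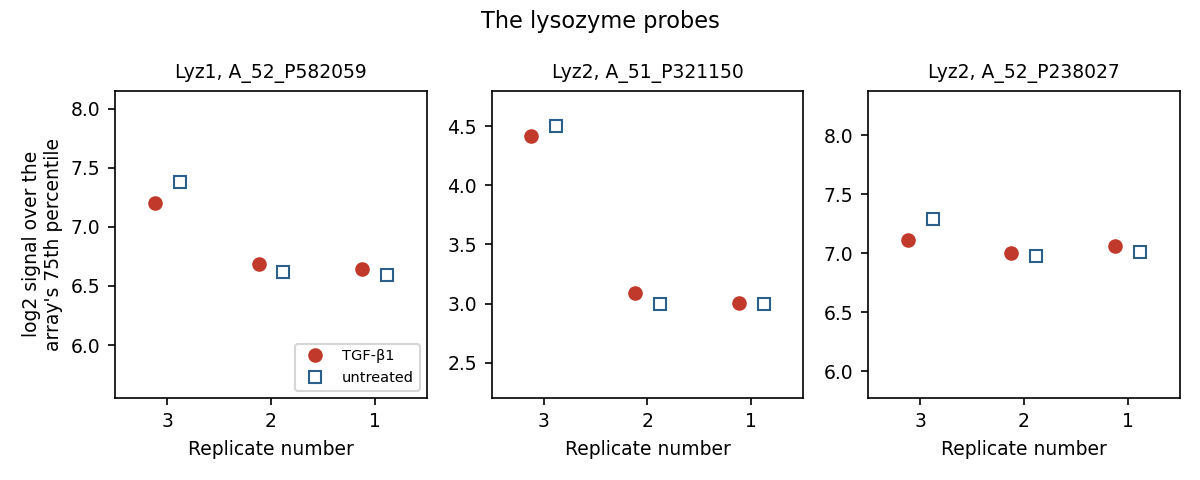
Log2 signal over the array's 75th percentile for the Lyz1 probe and both Lyz2 probes by replicate number, with treated arrays as filled circles left of untreated arrays as open squares; each panel spans the same number of log2 units. The dimmer Lyz2 probe is high on both replicate 3 arrays, whereas the brighter one differs by 0.16 between replicates 3 and 1.

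Among the oxidase genes Cybb alone was called, 1 of 4. Cybb encodes gp91phox, the membrane subunit that passes electrons to oxygen. It was at 2.35 treated and 2.65 untreated in replicate 3, at 0.22 treated and 0.50 untreated in replicate 2, and at 0.49 treated and 0.85 untreated in replicate 1. Both replicate 3 arrays were above all others, 4.40-fold over replicate 2 (2.14, SE 0.12) and 3.56-fold over replicate 1 (1.83, SE 0.12; F-test adjusted p = 0.0054). The second Cybb probe had 1.23 (adjusted p = 0.0225 in the fit on all probes). Its membrane partner Cyba had a range of 0.29 between replicate means, and the cytosolic subunits Ncf1 and Ncf4 had 0.78 and 0.89; none of these 3 passed the test. The 4 Fc receptor and adaptor genes (Fcgr1, Fcgr3, Fcer1g and Tyrobp) had ranges from 0.27 to 0.76 and adjusted p between 0.126 and 0.370.

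Of the 7 surface and complement genes 2 were called, in opposite directions. Ccr2, the chemokine receptor that brings monocytes out of the marrow, was at 2.52 treated and 2.93 untreated in replicate 3, at 0.85 treated and 1.57 untreated in replicate 2, and at 0.86 treated and 1.83 untreated in replicate 1. The replicate 3 arrays were the 2 highest, 2.85-fold above replicate 2 (1.51, SE 0.18) and 2.60-fold above replicate 1 (1.38, SE 0.18; adjusted p = 0.0355). Mrc1, the mannose receptor of macrophages, was at -2.21 treated and -1.81 untreated in replicate 3, at -0.40 treated and -0.23 untreated in replicate 2, and at 0.28 treated and 0.63 untreated in replicate 1. The replicate 3 arrays were the lowest, 5.52-fold below replicate 1 (log2 difference -2.46, SE 0.14; adjusted p = 0.0054). C1qa, a chain of complement C1q, ran the same way as Mrc1, at -3.65 treated and -3.83 untreated in replicate 3, against -2.30 treated and -2.47 untreated in replicate 1. Its F-test adjusted p was 0.0578, and its replicate 3 minus replicate 1 contrast had -1.35 (adjusted p = 0.0424). Itgam, the integrin alpha M chain, had 0.88 in that contrast and was not called (F-test adjusted p = 0.0855), and Adgre1, Cd14 and Ly86 had ranges of 0.39, 0.58 and 0.65.

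**Figure D3:**
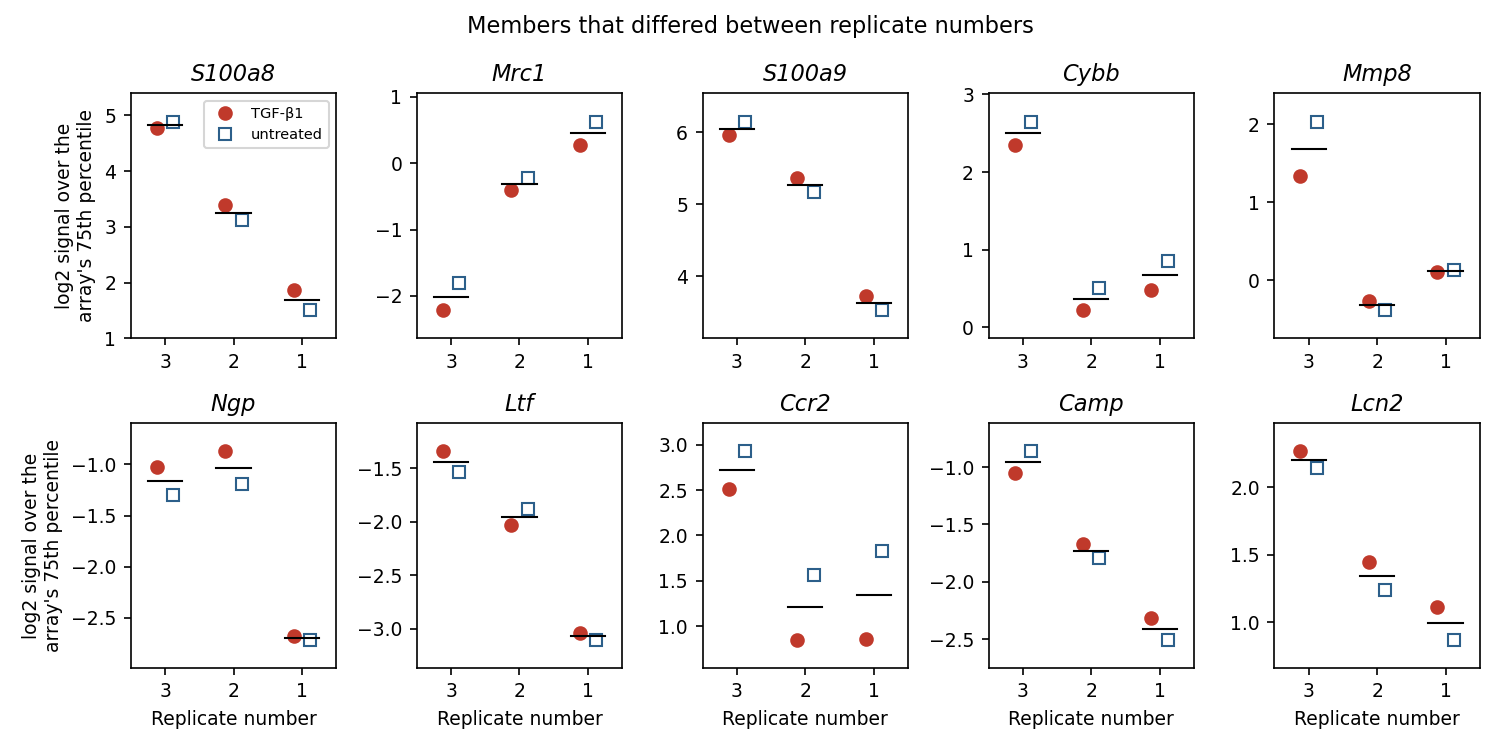
Log2 signal over the array's 75th percentile of the 10 members called by the F-test, by replicate number, with treated arrays as filled circles left of untreated arrays as open squares and the replicate mean as a line; each panel has its own axis. Replicate 3 is highest for 8 of them, Ngp is alike in replicates 3 and 2, and Mrc1 is lowest in replicate 3.

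Contrast by contrast, replicate 3 was higher than replicate 1 for 8 members, against 0.521% of all genes, and lower for 2, against 1.36%. Replicate 3 was higher than replicate 2 for 5 members, against 0.541% of all genes, and lower for 1, against 2.84%. Replicate 2 was higher than replicate 1 for 3 members (S100a8, S100a9 and Ngp), against 0.918%, and lower for 0, against 0.0651%. The median replicate 3 minus replicate 1 difference was 0.58 over the members and 0.08 over all genes, and 27 of 30 members had a positive value.

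The replicate differences were also present between arrays of the same slide and treatment. Slide 1 held the untreated arrays of replicates 3 and 1, and their difference was 3.38 for S100a8, 2.62 for S100a9, 1.90 for Mmp8, 1.80 for Cybb, 1.1 for Ccr2 and -2.44 for Mrc1. Slide 2 held the treated arrays of replicates 3 and 2, where S100a8 differed by 1.38, Cybb by 2.13, Mrc1 by -1.81 and Ngp by -0.15. Both replicate 1 arrays lay on slide 1 and both replicate 2 arrays on slide 2, so the difference between these numbers could not be read within a slide. When slide was a block all 10 members were called. S100a8, S100a9, Cybb and Mrc1 were called in all 15 settings run, while the other 6 were lost in at least 1. All settings reuse the same arrays, and normexp background correction and its maximum likelihood fit called 15928 and 15025 of all 29192 genes and transcripts. Calls in those fits therefore say little about the members. In 6 settings 1 array was left out, so its replicate number kept 1 array. The members called then changed with the array left out. The replicate 3 minus replicate 1 difference ran from 2.92 to 3.36 for S100a8, from -2.54 to -2.39 for Mrc1 and from 1.16 to 1.27 for Lcn2.

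Other genes of the same pathways were counted from lists. Of 19 measured other granule genes 4 were called by the F-test, and all 4 were higher in replicate 3 than in replicate 1. They were Chil3, a chitinase-like protein of myeloid cells (2.67, SE 0.14), Hp, haptoglobin (1.44), Fcnb, a ficolin of myeloid cells (1.18), and Lrg1, a glycoprotein of granulocytes (1.08). Of 31 other phagocyte receptors 7 were called. Fpr2, a formyl peptide receptor (1.78), the C-type lectin Clec5a (1.48) and the growth factor receptors Csf1r (1.21) and Csf2ra (1.02) had positive replicate 3 minus replicate 1 differences. The complement chain C1qc (-3.45) and the receptors for dying cells Axl (-2.30) and Mertk (-1.78) were lower in replicate 3. Of 24 lysosomal genes 2 were called, the protease genes Ctsl (-1.86) and Lgmn (-1.35), both lower in replicate 3. None of the 10 other oxidase genes measured passed the F-test (0 called).

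Markers of other cell types moved with the replicate number as well. Of 11 fibroblast and stroma markers 6 were called (Col1a1, Col1a2, Col3a1, Pdgfra, Dcn and Sparc), all lower in replicate 3 than in replicates 2 and 1. Their list's summed signal, in multiples of the 75th percentile, was 12.8 to 17.3 in replicate 3, 75.4 to 77.9 in replicate 2 and 34.3 to 42.5 in replicate 1. Dcn, the proteoglycan decorin, was at -0.79 treated and -0.95 untreated in replicate 3, against 4.15 treated and 3.93 untreated in replicate 1. Of 8 megakaryocyte markers 3 were called, Pf4, Ppbp and Itga2b, with summed signals of 19.8 to 22.4 in replicate 3, 62.1 to 67.0 in replicate 2 and 63.4 to 74.9 in replicate 1. The F-test called 2 of 9 dendritic cell markers and 1 of 12 stem and progenitor markers, and 0 of the erythroid, mast cell, eosinophil, lymphoid and endothelial ones. The part of these other cells in the differences of the granule and phagocyte genes was not tested.

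**Figure D4:**
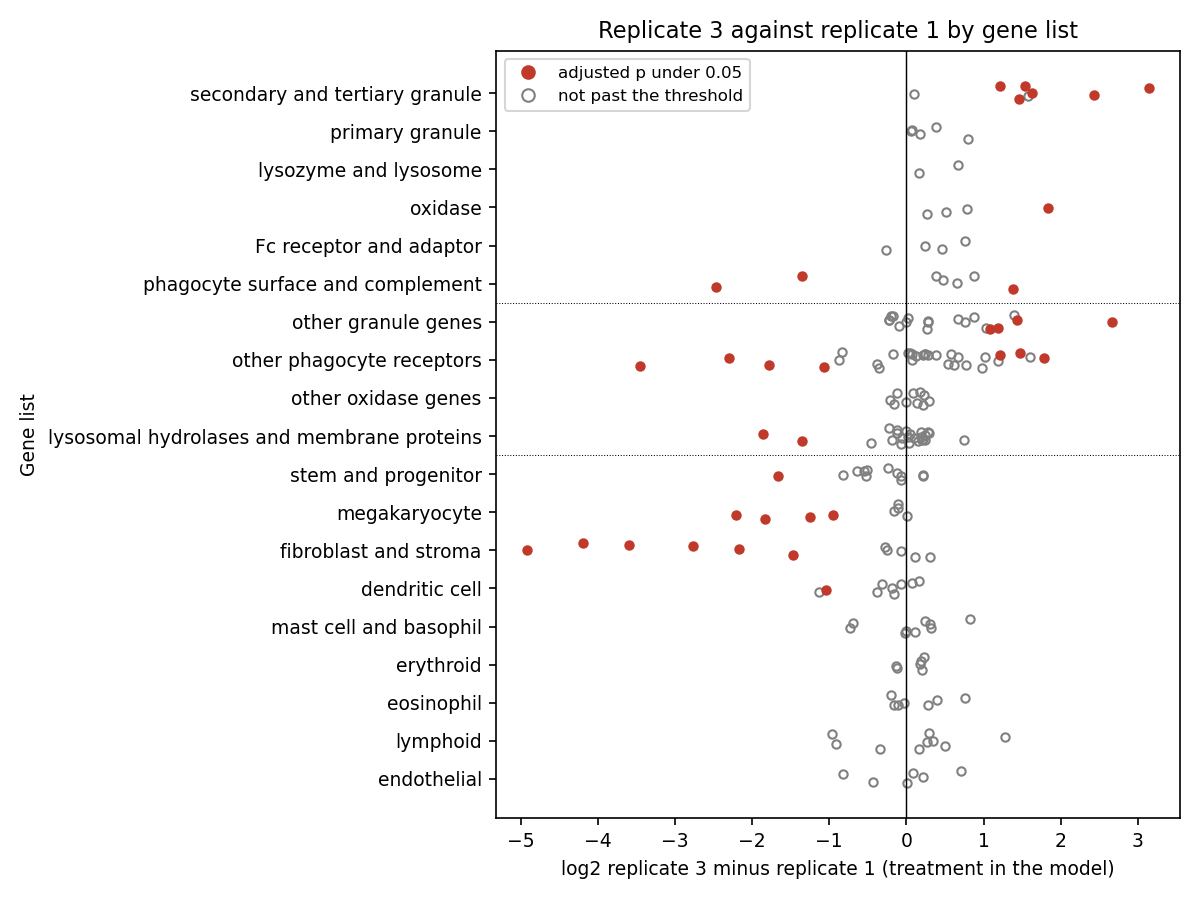
Log2 difference of replicate 3 minus replicate 1 for each measured gene (points), with members by role in the upper block, other pathway genes in the middle block and markers of other cell types in the lower block; filled points passed an adjusted p of 0.05 in that contrast. Genes listed as secondary and tertiary granule lie to the right, from 0.10 for Mmp9 to 3.14 for S100a8, and stromal markers reach to the left, down to -4.91.

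TGF-β1 for 2 h gave no called change in the members. The comparison of treated with untreated cells in limma called 0 of 30 members, against 0.253% of all genes and transcripts; in each direction this was 0 members, against 0.226% higher and 0.0274% lower over all 29192. With the replicate number as a block, which takes out the differences described above, 0 members were called, against 0.651% of all genes. At an unadjusted p under 0.05 there was 1 member, Ncf1, against 5.77% of all genes, and with the block 5 (Ncf1, Fcgr3, Ccr2, Cybb and Mrc1), against 10.9%. Every other setting run called 0 members, and those that kept all 6 arrays had 0 to 5 at an unadjusted p under 0.05. Changes ran from -0.70 to 0.75, 24 of 30 were smaller than 0.25 in size, and the median was -0.02 over the members and -0.01 over all genes.

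Ncf1, the p47phox organiser of the oxidase, was the member with the largest positive change. It was at 2.64, 1.96 and 1.77 on the treated arrays of replicates 3, 2 and 1, against 1.76, 1.30 and 1.06 on the untreated arrays. With 1 probe a gene it was the only 1 of 30 members whose groups did not overlap, against 10.4% of all genes, and it was higher after TGF-β1 in each of the 3 pairs, by 0.88, 0.67 and 0.71 in pairs 3, 2 and 1. The fitted change was 0.75 (SE 0.28, 95% interval 0.07 to 1.43), with an adjusted p of 0.754, or 0.0886 with the pair as a block. Its change was 0.36 among the arrays of slide 1, 1.0 among those of slide 2, and 0.68 when slide was a block (adjusted p = 0.540). Treated and untreated arrays of a slide differed in their replicate numbers, so a change within a slide mixes treatment with replicate number. The second Ncf1 probe had 0.56, with pairs between 0.52 and 0.64, and its groups overlapped. Among the 7 second probes, that of Adgre1, an adhesion receptor of macrophages, was separated as well, at -3.39 to -3.23 on the treated arrays, against -3.07 to -2.84 on the untreated arrays. Its change was -0.32 (adjusted p = 0.828 in the fit on all probes), against -0.08 for the Adgre1 probe used, and it was chosen for naming after its values were seen.

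Fcgr3, a low-affinity receptor for IgG, was at 4.46, 4.32 and 3.76 on the treated arrays of replicates 3, 2 and 1, against 3.97, 3.54 and 3.16 on the untreated arrays. The groups overlapped, and every pair was higher after treatment, by 0.48, 0.77 and 0.60 in pairs 3, 2 and 1. Its change was 0.62 (SE 0.27, 95% interval -0.04 to 1.27; adjusted p = 0.922, or 0.142 with the pair as a block), and the second probe had 0.30. The Fcgr3 change was 0.19 among the arrays of slide 1 and 0.84 among those of slide 2, values that again mix treatment with replicate number.

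On the negative side were Ccr2, Cybb, Cd14 and Mrc1. Ccr2, whose values are given above, had changes of -0.41, -0.71 and -0.97 in pairs 3, 2 and 1, and its treated and untreated arrays overlapped. The fitted Ccr2 change was -0.70 (SE 0.55, 95% interval -2.02 to 0.63), with a limma adjusted p of 0.99995, or 0.182 with the pair as a block. The Ccr2 change was -1.52 among the arrays of slide 1 and 0.12 among those of slide 2, values that mix treatment with replicate number. Pair 1 lay wholly on slide 1 and pair 2 wholly on slide 2, and both had a negative Ccr2 change. Cd14, the lipopolysaccharide co-receptor, was at 2.81, 2.50 and 2.53 on the treated arrays of replicates 3, 2 and 1, against 3.44, 2.59 and 2.77 on the untreated arrays. The arrays overlapped, and pairs 3, 2 and 1 had -0.63, -0.09 and -0.24. The fitted Cd14 change was -0.32 (SE 0.24; limma adjusted p = 0.99995, or 0.536 with the pair as a block). Cybb had -0.31 (limma adjusted p = 0.99995, or 0.377 with the block) and Mrc1 -0.31 (0.99995, or 0.425 with the block). Both had the same sign in each of the 3 pairs.

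Other members with their values named had smaller changes. Mmp9 had -0.16 (SE 0.25), Ctsg -0.13 (SE 0.13), Ms4a3 -0.13 (SE 0.16), Fcgr1, the high-affinity IgG receptor, -0.09 (SE 0.15) and Itgam 0.09 (SE 0.31). On the treated arrays of replicates 3, 2 and 1 Ms4a3 was at 6.41, 6.08 and 6.23, against 6.53, 6.20 and 6.37 on the untreated arrays, lower in all 3 pairs but with overlapping groups. Mmp9 was at -4.37, -3.86 and -4.45 on the treated arrays, against -4.22, -3.64 and -4.33 on the untreated arrays, again lower in all 3 pairs with overlap. The second Mmp9 probe had a change of -0.02 and did not keep one sign, with 0.25 in pair 3. Fcgr1 was at 0.76, 0.88 and 1.02 on the treated arrays, against 0.90, 0.86 and 1.19 on the untreated arrays, and its groups overlapped too. Ctsg was at 7.42, 7.44 and 7.53 on the treated arrays, against 7.75, 7.50 and 7.53 on the untreated arrays. Itgam was at 0.39, -0.24 and -0.59 on the treated arrays, against 0.22, -0.39 and -0.54 on the untreated arrays. Both Ctsg and Itgam overlapped between the groups. By sign, 11 of 30 members ran one way in all 3 pairs, against 34.2% of all genes, with 4 higher, against 14.1%, and 7 lower, against 20%.

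**Figure D5:**
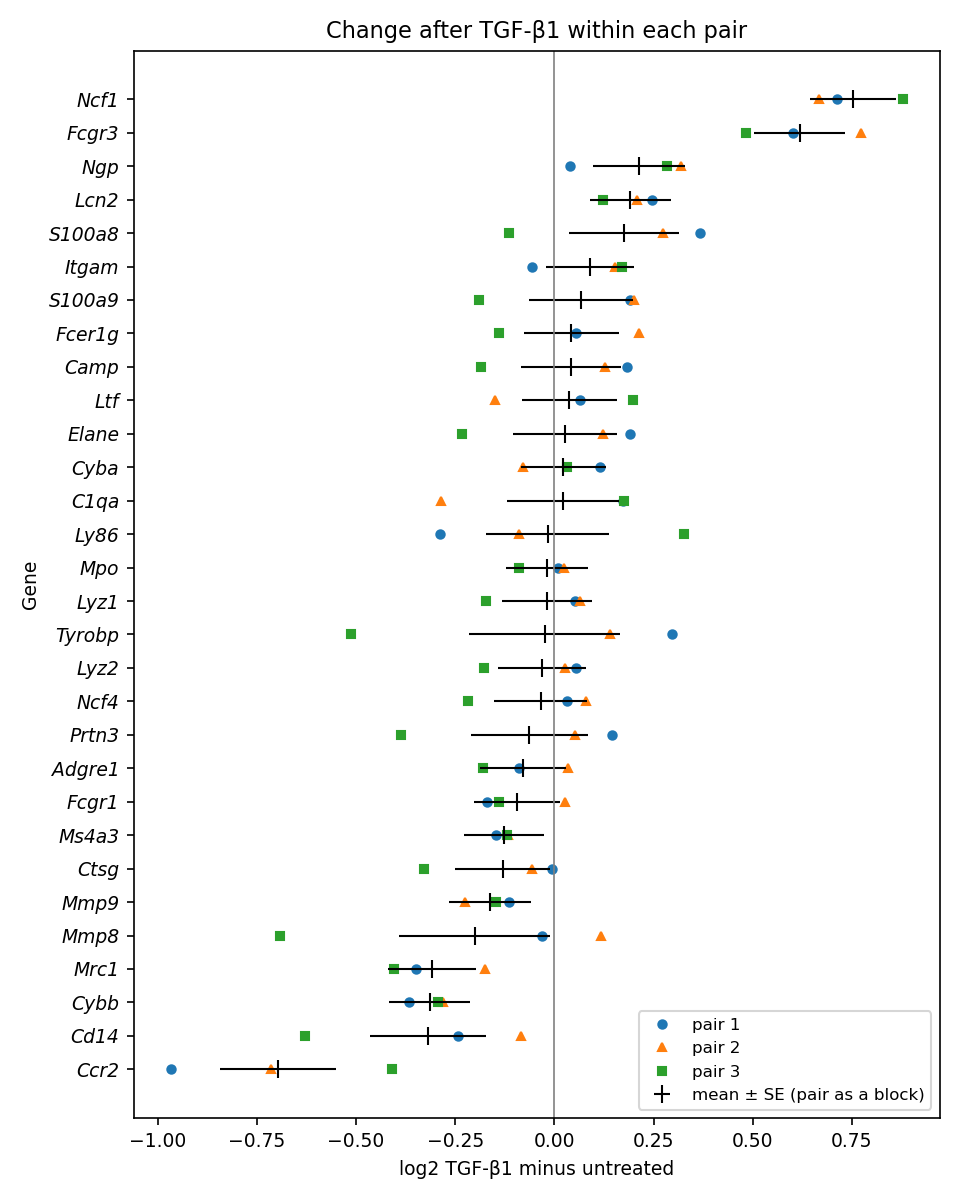
Log2 change after TGF-β1 (treated minus untreated) for the 30 members, as the value of each of the 3 pairs (symbols) and their mean with the standard error from the fit that takes the pair as a block (bars). Ncf1 and Fcgr3 lie at the positive end at 0.75 and 0.62, Ccr2 at the negative end at -0.70, and most others lie close to 0.

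In the lists of other pathway genes 0 were called after TGF-β1, with or without the block. Among the 31 other phagocyte receptors 6 had an unadjusted p under 0.05, against 5.77% of all genes. Trem1, an activating receptor of myeloid cells, was at 0.09, 0.03 and 0.38 on the treated arrays of replicates 3, 2 and 1, against -0.64, -1.19 and -0.98 on the untreated arrays, a change of 1.11 (SE 0.19; adjusted p = 0.117, or 0.0874 with the block). The others included the chemokine receptor Cxcr2 (1.13, adjusted p = 0.280), the formyl peptide receptor Fpr1 (-1.52, 0.692) and the lectin Clec4e (-0.75, 0.113). Tlr4 (-0.75, limma adjusted p = 0.593) and Ly96 (-0.49, 0.575) were also among them. Trem1, Cxcr2, Fpr1, Clec4e, Tlr4 and Ly96 were chosen for naming after their values were seen. Of the 19 other granule genes 1 had an unadjusted p under 0.05, of the 24 lysosomal genes 1, and of the 10 other oxidase genes 0.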

How the data were processed

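Cy3-labelled total RNA of 3 treated and 3 untreated samples, grouped by their titles, was run on Agilent design 014868. Per the file headers, Feature Extraction 10.1.1.1 read the spots. For each spot the authors deposited a processed intensity from which background was subtracted, with no scaling from array to array. The series matrix the authors deposited holds log2 values, which follow the log2 median spot signal of the scanner files (r from 0.99951 to 0.99989; column medians 7.383 to 7.417) and whose scaling and centring are unknown here. The submitters' processing notes name limma.

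From the 43379 non-control spots of 41174 probes, spots of a probe were averaged without outlier flags (43 to 101 per array), and log2 intensity minus the array's 75th percentile was used. Probes well above background on at least 3 of 6 arrays were kept (36384). RefSeq accessions named 23374 probes through a GRCm38.p6 table, and 17800 kept the file's identifier. Each gene used its kept probe of highest mean. limma 3.58.1 in R 4.3.3 compared treatments without a block, and replicate numbers by a moderated F-test with treatment in the model, adjusted by Benjamini-Hochberg over all 29192 genes and transcripts. Second probes of members come from the same models fitted on all 36384 probes kept. The fit was tested on simulated data. Deviations from group means of same-numbered samples correlated at 0.61, 0.78 and 0.55, against -0.72 to 0.07 between numbers, and the numbers were taken to pair the samples. Deviations within a group cancel out, which pulls the values between numbers down when those of same numbers are positive. Pairs 1 and 2 each also shared 1 slide, so a part of the slide in their correlation cannot be told apart. The median residual SD was 0.24, and 0.16 with the block.

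Members and lists were chosen with earlier results of these data known. Values per array are given for members past an adjusted p of 0.05 and for up to 8 others with the largest treatment change. Alternatives were normexp background correction (offset 50, on the median spot signal, as the files have no mean signal), a maximum likelihood fit of it added after the data were seen, quantile normalization, the series matrix, other filters, the mean of probes, slide and replicate blocks and leaving out arrays.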

Additional observations from a re-analysis of the deposited data

How the results depend on the processing

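All 30 members stayed measured when a probe had to be well above background on all 6 arrays. The count of 0 members called after TGF-β1 held under every setting run, leave-outs included. Over all genes it was 74, against 5 with normexp background correction, 5 with its maximum likelihood fit, 171 from the series matrix, 190 with the replicate block and 0 to 23 leaving out arrays. For the replicate number, 10 members were called, against 16 with normexp, 17 from the series matrix, 6 with no filter on probes and 5 to 21 leaving out arrays. The matching counts over all genes were 893, against 15928 with normexp, 15025 with its maximum likelihood fit, 1663 from the series matrix and 432 to 8095 leaving out arrays. With no filter on probes the count over all genes was 604. Normexp and its maximum likelihood fit called 15928 and 15025 of all 29192 genes and transcripts. The number of members called in those fits, 16 with normexp, therefore says little about the members. Normexp moved the median replicate 3 minus replicate 1 difference of all genes to 0.64, against 0.08. Its fitted background mean was -119 and -253 on the replicate 3 arrays, against -3.71 to 0.83 on the others. Other causes were not tested.

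None of the replicate 3 minus replicate 1 differences of the 10 called members changed sign. Treatment changes that did, all uncalled, were Ngp with the slide as a block (-0.21) and Mmp8 with replicate and slide blocks (0.0439). Within slide 1, which held treated replicate 1 and untreated replicates 1 and 3, they were Itgam (-0.44), Mrc1 (0.87) and Ngp (-0.67). Within slide 2, which held treated replicates 2 and 3 and untreated replicate 2, they were Cd14 (0.0694), Ms4a3 (0.0483), Cybb (0.78), Mmp8 (0.92) and Ccr2 (0.12). These within-slide values mix treatment with replicate number. Leaving out arrays gave Mmp9 -0.34 to 0.051, Fcgr1 -0.16 to 0.0083, Itgam -0.18 to 0.32, Mrc1 -0.98 to 0.41, Cybb -0.98 to 0.34, Mmp8 -0.69 to 0.52 and Ngp -0.28 to 0.79. The replicate block changed no call of a member.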

Other observations

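The dendritic cell markers called for the replicate number ran differently from the granule genes. H2-Ab1, a chain of MHC class II, was at -1.15 treated and -1.21 untreated in replicate 3, at -2.11 treated and -2.04 untreated in replicate 2, and at -0.21 treated and -0.07 untreated in replicate 1 (limma F-test adjusted p = 0.0098). Cd74, the class II invariant chain, was also lowest in replicate 2, at -1.35 treated and -0.77 untreated. Hlf, a transcription factor of stem cells, was lower in replicate 3 than in replicate 1, with a difference of -1.66 (SE 0.16; adjusted p = 0.0274).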
